A study of Sus scrofa with 24 samples.

Results

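Genes linked to mesothelium and epicardium, 7 in all, were followed on every array of a porcine infarct study: KRT8, KRT18, TBX18, UPK1B, CLDN3, CLDN15 and GATA5. They are 7 of the 6018 named genes that had a usable probe, and were found by matching the gene names and accessions in the array files to these symbols. The match gave 10 probes, 3 for KRT8, 2 for UPK1B and 1 for each of the other 5 genes, and all 10 passed the filter on dim probes. The symbols were chosen by measured values of these same arrays, among them the difference between border zone and normal region. Values in that comparison are therefore a description without a test. How far other comparisons played a part in the choice is not recorded, so no count or p-value below is independent support for the list.

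The heart muscle came from 9 domestic pigs, 1 array per sample, all with a closed-chest, reperfused myocardial infarction. Every pig of both arms had been given 250 mg aspirin and 300 mg clopidogrel beforehand and 100 mg and 75 mg of them daily during follow-up. Treatment was injected percutaneously into the heart muscle 1 month after the infarct, and tissue was taken 1 month later. The secretome arm (pigs 11, 12, 13, 14, 15 and 16) received the products released by apoptotic peripheral mononuclear cells. The arm labelled as not treated (pigs 10, 18 and 40) is taken as the medium placebo arm of the design, which names 8 pigs per arm. The secretome arm has 6 arrays of the infarct core, 6 of the border zone and 4 of the normal region. The medium arm has 3, 3 and 2. Per the labels the border zone is also the injection zone. Pigs 12, 13 and 40 had no normal region array. Age was not given in the sources used here.

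The heart is wrapped in a mesothelium, a single sheet of flat epithelial cells called the epicardium on the muscle and continuous with the lining of the pericardial sac. Its cells carry simple epithelial keratins, tight junctions and a set of developmental transcription factors. In the embryo, cells leave this sheet by an epithelial to mesenchymal transition and give rise to cardiac fibroblasts and vascular mural cells, and after injury the adult sheet is known to take up parts of this programme again. Several of these genes are not unique to mesothelium: KRT8 and KRT18 are found in other simple epithelia, UPK1B in the urinary tract, and TBX18 in mural cells.

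Arrays had 61.5% to 75.6% of their probes well above background. Their 75th percentiles of signal were 210.1 to 617.2 intensity units. Both lowest values were those of the border zone array of pig 40. The arrays were scanned in 2 series of 12, with pigs 12, 13, 16, 18 and 40 in series 1 and pigs 10, 11, 14 and 15 in series 2. Precision is limited by how few arrays there are, with 3 pigs in the medium arm. Tissue labels were set against marker lists by the mean log2 level of a list relative to the 75th percentile of the array. Cardiomyocyte markers (7 of 8 measured) scored 6.06 to 8.42 in secretome infarct cores, 2.21 to 7.06 in medium infarct cores, and 8.27 to 8.91 in normal regions of both arms. Fibroblast markers (5 of 6 measured) scored 5.74 to 7.23 in infarct cores and 2.49 to 4.42 in normal regions. Heart muscle markers were thus present in every infarct core, with the lowest score in pig 40. Signals below are on a linear scale, set to a common 75th percentile of 371.3 intensity units. Differences are on the log2 scale with their standard error (SE), adjusted p-values are from limma with Benjamini-Hochberg adjustment over all 34278 probes, and the threshold is 0.05. A signal of 1 probe is not compared with that of another.

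**Figure D1:**
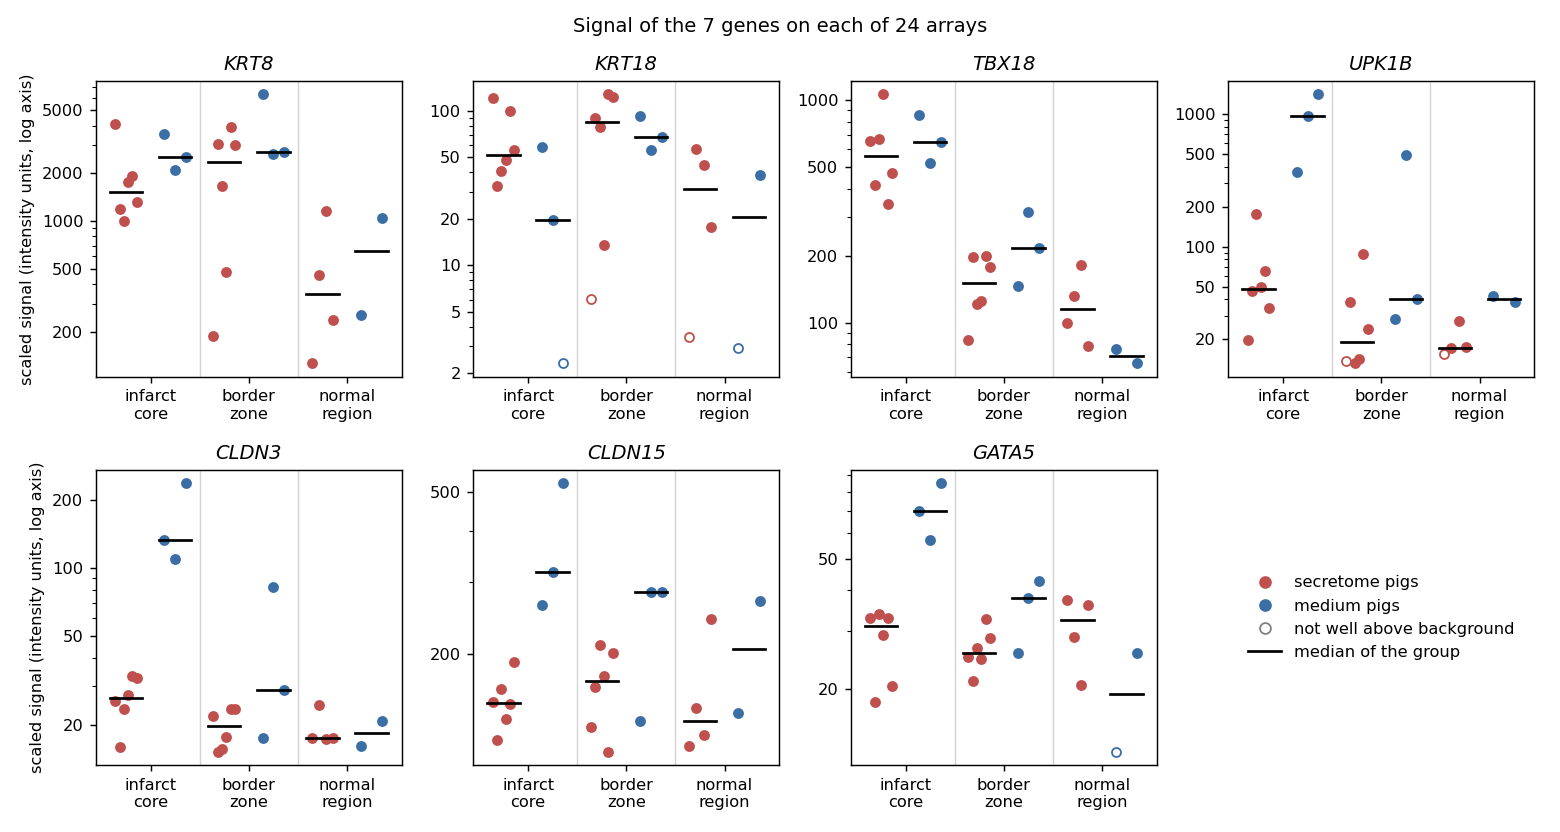
Scaled signal (intensity units, log axis) of each gene on each of 24 arrays, by region and, within a region, secretome pigs left of medium pigs. Points are single pigs, open points were not well above background, and bars are group medians. TBX18 is higher on all infarct core arrays than on all others, while UPK1B, CLDN3, CLDN15 and GATA5 are lower in all 6 secretome infarct cores than in all 3 medium infarct cores.

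Region was compared first, setting 9 infarct cores against 6 normal regions with equal weight for each arm. Of the 7 genes 5 were higher in the infarct core by limma (KRT8, TBX18, UPK1B, CLDN3 and GATA5), none was lower, and KRT18 and CLDN15 did not pass. Across all probes 25.4% passed as higher and 27.6% as lower in this comparison. The median difference of the 7 genes was 1.76 on the log2 scale, against -0.05 over all probes. In tissue of mixed cells, a larger share of cells of a type and more RNA per cell cannot be told apart. Against the border zone of the same 9 pigs, 4 of the 7 genes were higher in the infarct core (TBX18, UPK1B, CLDN3 and GATA5), and none was lower, where 23.1% of all probes passed as higher and 23.6% as lower. Values for border zone minus normal region are given below for each gene with no call, since that difference entered the choice of the 7. These comparisons share arrays, so their values stand side by side and are not independent of each other.

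**Figure D2:**
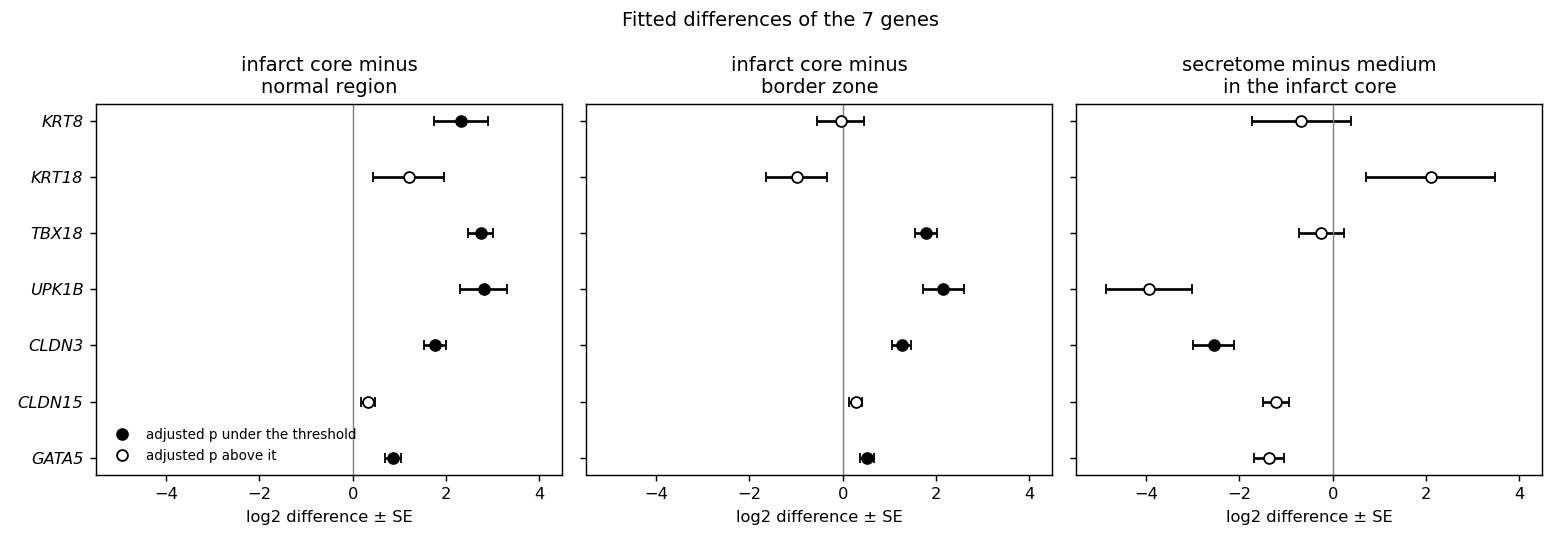
Fitted log2 differences of the 7 genes with their SE, for infarct core minus normal region, infarct core minus border zone, and secretome minus medium within the infarct core. Filled points had a limma adjusted p under the threshold of 0.05. KRT8 differed from the normal region by 2.33 and from the border zone by -0.04, and CLDN3 is the only gene of the 7 with a filled point in all 3 panels.

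Keratins 8 and 18 are the type II and type I partners that pair into the intermediate filaments of simple epithelia. In the RefSeq annotation of the Sscrofa11.1 assembly their genes lie on chromosome 5 with 1 unnamed gene between them. The probes that read them are shown because KRT8 rests on 3 separate stretches of transcript and KRT18 on 1. Capitals mark the longest run, 11 bases, that the KRT18 probe shares with the brightest KRT8 probe. Sequences are those of the array files, 5′ to 3′.
KRT8 probe 1, the brightest: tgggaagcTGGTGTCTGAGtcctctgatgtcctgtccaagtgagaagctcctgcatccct
KRT8 probe 2: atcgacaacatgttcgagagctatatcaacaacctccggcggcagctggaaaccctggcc
KRT8 probe 3: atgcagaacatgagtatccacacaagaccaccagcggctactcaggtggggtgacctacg
KRT18 probe: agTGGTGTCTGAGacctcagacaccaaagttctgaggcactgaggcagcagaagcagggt
The 3 KRT8 probes ran together over the 24 arrays, with Pearson's r of 0.979 to 0.991 between them. The brightest stands for the gene.

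KRT8 had signals of 1002 to 4069 in the 6 secretome infarct cores (median 1535), and 3520, 2112 and 2535 in the medium infarct cores of pigs 10, 18 and 40. In the border zone it read 187 to 3940 in secretome pigs (median 2343), and 6284, 2646 and 2728 in medium pigs 10, 18 and 40. Normal regions gave 127, 456, 1155 and 238 in secretome pigs 11, 14, 15 and 16, and 256 and 1048 in medium pigs 10 and 18. The infarct core and normal region overlapped only through the infarct core of pig 13 and the normal regions of pigs 15 and 18. The border zone held both the highest and, after normal regions, the lowest values, with pigs 11 and 14 far below the other 7 pigs.

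KRT8 was higher in the infarct core than in the normal region by 2.33 ± 0.58 (SE, limma adjusted p = 0.00205), which is a 5.01-fold difference. The normal region arrays are those of the comparison that entered the choice of the genes, so this p-value is not independent of that choice. The other 2 probes gave 2.07 ± 0.59 and 2.08 ± 0.53. The rise was seen in 6 of 6 pigs with both regions, by 0.74 to 5.0. The difference was 1.75 within scan series 1 (limma adjusted p = 0.00139) and 3.17 within scan series 2 (0.0538). Without pig 10 it was 1.65 and short of the threshold (limma adjusted p = 0.0734). The border zone was likewise higher than the normal region in 6 of 6 pigs, by 0.08 to 4.62, with a fitted difference of 2.37 ± 0.58. Infarct core and border zone did not differ beyond their spread (-0.04 ± 0.50, limma adjusted p = 0.951), and the infarct core was the lower one in 7 of 9 pigs. That difference was -0.66 and past the threshold within scan series 1, and 0.46 within scan series 2. In the order of levels, infarct core and border zone were thus not told apart over all pigs, and the normal region was lowest.

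The KRT18 signal spread more widely. It read 32.7 to 122 in secretome infarct cores (median 51.9), and 58.6, 19.5 and 2.32 in medium infarct cores of pigs 10, 18 and 40. Border zones gave 6.08 to 128 in secretome pigs (median 84.4), and 92.6, 56.1 and 67.3 in medium pigs 10, 18 and 40. Normal regions gave 3.44, 56.6, 44.3 and 17.6 in secretome pigs 11, 14, 15 and 16, and 2.93 and 38.4 in medium pigs 10 and 18. It was not well above background on 4 arrays: the infarct core of pig 40, the border zone of pig 11 and the normal regions of pigs 10 and 11. All 3 regions overlapped, and no neighbours in their order were told apart.

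The fitted difference of KRT18 between infarct core and normal region was 1.2 ± 0.76 (limma adjusted p = 0.192), and it was higher in 4 of 6 pigs. It was -0.43 within scan series 1 and 3.17 within scan series 2, and -0.24 without pig 10, so the 2 series did not share a direction. Border zone minus normal region read 2.19 ± 0.76, with the border zone higher in 5 of 6 pigs. Infarct core minus border zone read -0.98 ± 0.66 (limma adjusted p = 0.23), with the infarct core lower in 7 of 9 pigs. That difference was -2.18 within scan series 1 (limma adjusted p = 0.0112) and 0.64 within scan series 2 (0.732). The keratin partners moved together from array to array, with r = 0.69 over 24 arrays of the same 9 pigs.

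**Figure D3:**
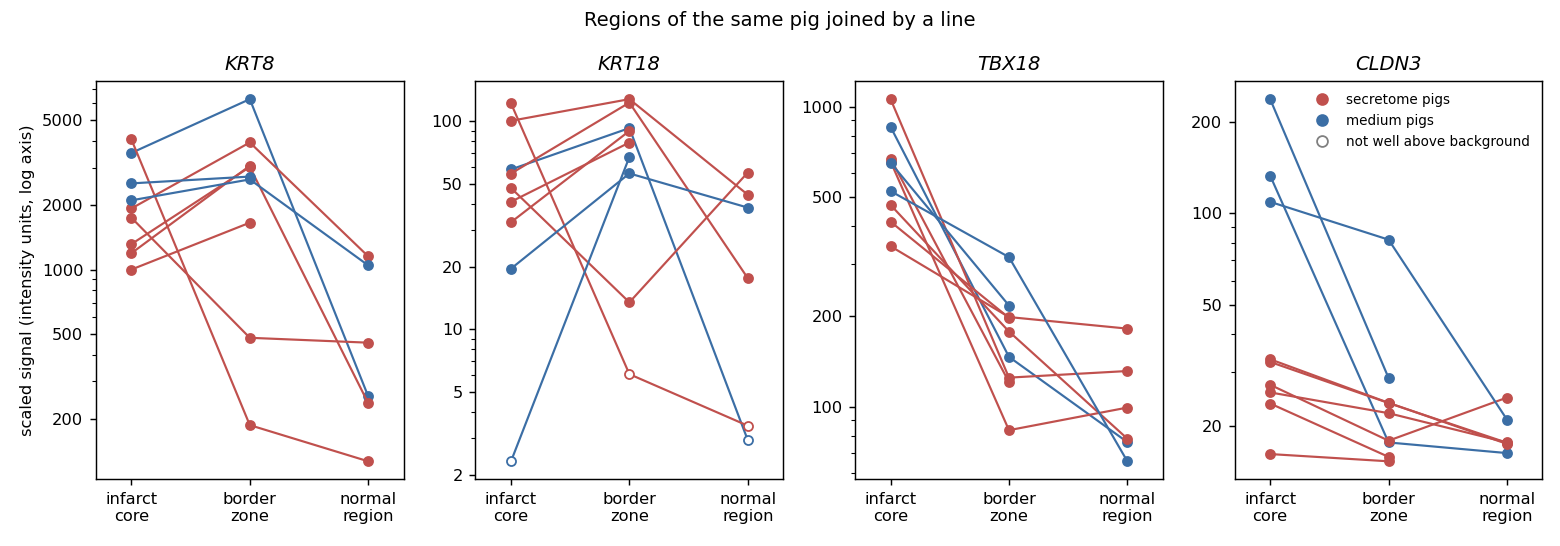
Scaled signal (intensity units, log axis) of KRT8, KRT18, TBX18 and CLDN3 in the infarct core, border zone and normal region, with the regions of a pig joined by a line. Pigs 12, 13 and 40 have no normal region, and open points were not well above background. TBX18 is highest in the infarct core of each of 9 pigs, whereas KRT8 and KRT18 are higher in the border zone than in the infarct core in 7 of 9 pigs.

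TBX18 is a T-box transcription factor expressed in the embryonic epicardium and retained in pericytes and other mural cells. Its signals were 343 to 1060 in secretome infarct cores (median 564), and 857, 523 and 651 in medium infarct cores of pigs 10, 18 and 40. In border zones they were 83.5 to 199 in secretome pigs (median 151), and 147, 315 and 217 in medium pigs 10, 18 and 40. Normal regions read 99.3, 132, 182 and 78.2 in secretome pigs 11, 14, 15 and 16, and 76.2 and 65.8 in medium pigs 10 and 18. The lowest infarct core thus lay above the highest border zone and the highest normal region, and it was the only gene of the 7 without overlap between regions. Without overlap, 7.40% of all probes were higher in the infarct core than in the normal region, and 1.46% higher than in the border zone.

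TBX18 was higher in the infarct core by 2.75 ± 0.27 against the normal region (limma adjusted p = 2.05e-07), a 6.71-fold difference. Against the border zone it was higher by 1.79 ± 0.23 (limma adjusted p = 1.07e-05). It rose in 6 of 6 pigs in the first comparison, by 0.91 to 3.49, and in 9 of 9 in the second, by 0.73 to 3.08. The difference from the normal region was 2.94 and 2.85 within scan series 1 and 2, and that from the border zone 1.4 and 2.41. Border zone minus normal region read 0.95 ± 0.27, with the border zone higher in 4 of 6 pigs. Fibroblast markers moved with TBX18. Their score was 5.74 to 7.23 in secretome infarct cores and 6.46 to 7.06 in medium ones, against 2.18 to 5.58 and 5.29 to 5.76 in border zones. Their part in the TBX18 result was not tested.

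UPK1B encodes a uroplakin of the tetraspanin family, known from the urothelial plaque and also expressed by mesothelial cells. Of its 2 probes, the one named through a RefSeq accession is shown, because its values check those of the brighter one, which stands for the gene.
UPK1B probe 2: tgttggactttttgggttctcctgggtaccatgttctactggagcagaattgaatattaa
The 2 probes had r = 0.964 over 24 arrays. By the brighter probe, UPK1B read 19.7, 46.5, 175, 49.3, 66.0 and 34.4 in the infarct cores of secretome pigs 11 to 16, in that order, and 362, 960 and 1395 in those of medium pigs 10, 18 and 40. Border zones gave 13.2 to 88.1 in secretome pigs (median 19.2), and 28.4, 485 and 40.5 in medium pigs 10, 18 and 40. Normal regions read 15.6, 17.3, 27.5 and 17.4 in secretome pigs 11, 14, 15 and 16, and 42.5 and 38.4 in medium pigs 10 and 18. Values above 175 were limited to 4 of the 24 arrays, the 3 medium infarct cores and the border zone of medium pig 18. The border zone and normal region of pig 11 were not well above background.

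With both arms weighted equally, UPK1B was higher in the infarct core than in the normal region by 2.81 ± 0.50 (limma adjusted p = 9.11e-05) and than in the border zone by 2.16 ± 0.44 (limma adjusted p = 0.000414). Probe 2 gave 2.16 ± 0.41 and 1.69 ± 0.35. The difference from the normal region was 3.47 within scan series 1 and 2.06 within scan series 2, and that from the border zone 2.27 and 2.15, the last short of the threshold (limma adjusted p = 0.0543). By arm, the infarct core exceeded the normal region by 0.34 to 1.51 in 4 secretome pigs and by 3.09 and 4.64 in 2 medium pigs. The difference from the normal region was thus above 0 in every pig of both arms, and larger in both medium pigs. Against the border zone the arms overlapped, at -0.42 to 3.73 in 6 secretome pigs and 0.98 to 5.11 in 3 medium pigs. Border zone minus normal region was 0.65 ± 0.50, higher in 3 of 6 pigs, and -0.26 without pig 18.

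Claudins are the strand-forming proteins of tight junctions. CLDN3 encodes a sealing claudin of many epithelia. It read 25.7, 16.1, 23.6, 27.2, 33.0 and 32.4 in infarct cores of secretome pigs 11 to 16, in that order, and 133, 109 and 237 in those of medium pigs 10, 18 and 40. Border zones gave 15.2 to 23.7 in secretome pigs (median 19.9), and 17.6, 81.8 and 28.7 in medium pigs 10, 18 and 40. Normal regions read 17.6, 24.7, 17.4 and 17.6 in secretome pigs 11, 14, 15 and 16, and 16.2 and 20.9 in medium pigs 10 and 18. The same 4 arrays as for UPK1B were the highest. All other arrays lay between 15.2 and 33.0.

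CLDN3 was higher in the infarct core than in the normal region by 1.76 ± 0.24 (limma adjusted p = 4.59e-06), in 6 of 6 pigs. It was higher than in the border zone by 1.26 ± 0.20 (limma adjusted p = 5.73e-05), in 9 of 9 pigs. These differences were 1.77 and 1.78 within scan series 1 and 2 against the normal region, and 1.05 and 1.68 against the border zone. By arm, the infarct core exceeded the normal region by 0.14 to 0.925 in 4 secretome pigs and by 2.38 and 3.03 in 2 medium pigs. It exceeded the border zone by 0.08 to 0.61 in 6 secretome pigs and by 0.41 to 3.05 in 3 medium pigs. Border zone minus normal region was 0.49 ± 0.24, higher in 5 of 6 pigs, and 0.17 without pig 18.

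CLDN15 encodes a claudin that forms cation-selective pores. Its signals were 123 to 192 in secretome infarct cores (median 152), and 264, 318 and 524 in medium infarct cores of pigs 10, 18 and 40. Border zones read 115 to 211 in secretome pigs (median 172), and 137, 284 and 283 in medium pigs 10, 18 and 40. In normal regions the values were 119, 148, 127 and 244 in secretome pigs 11, 14, 15 and 16, and 144 and 269 in medium pigs 10 and 18. The 3 regions overlapped. CLDN15 did not pass between infarct core and normal region (0.33 ± 0.15, limma adjusted p = 0.0792), or between infarct core and border zone (0.28 ± 0.13, limma adjusted p = 0.0908). Border zone minus normal region was 0.05 ± 0.15. It passed without pig 18, at 0.49 against the normal region (limma adjusted p = 0.0444) and 0.41 against the border zone (0.0341). It also passed in both, at 0.42 (limma adjusted p = 0.0293) and 0.35 (0.0356), with signals scaled to the percentile over probes detected on all arrays. Its difference from the normal region was -0.02 within scan series 1 and 0.53 within scan series 2.

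GATA5 encodes a zinc finger transcription factor of the embryonic heart, found in endocardium and epicardium in mouse. Its probe read 18.3 to 33.8 in secretome infarct cores (median 31.1), and 69.9, 57.2 and 85.0 in medium infarct cores of pigs 10, 18 and 40. Border zones gave 21.1 to 32.7 in secretome pigs (median 25.8), and 25.8, 37.8 and 42.6 in medium pigs 10, 18 and 40. Normal regions gave 37.4, 28.8, 20.6 and 36.2 in secretome pigs 11, 14, 15 and 16, and 12.9 and 25.8 in medium pigs 10 and 18, the 12.9 not well above background. The 3 medium infarct cores were the highest arrays, and the other groups overlapped.

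GATA5 was higher in the infarct core than in the normal region by 0.87 ± 0.17 (limma adjusted p = 0.000287) and than in the border zone by 0.53 ± 0.15 (limma adjusted p = 0.00682), with both arms weighted equally. Within scan series 1 these were 0.36 (limma adjusted p = 0.28) and 0.34 (0.199), and within scan series 2 they were 1.31 and 0.83. Without pig 10 the difference from the border zone was 0.42 (limma adjusted p = 0.0509). By arm, infarct core minus normal region was -0.83 to 0.68 in 4 secretome pigs, higher in 2 of them, and 1.15 and 2.44 in 2 medium pigs. The fitted rise of GATA5 thus came with medium pigs high in the infarct core, and 1 medium normal region at background. Border zone minus normal region was 0.34 ± 0.17, higher in 3 of 6 pigs.

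A further question is whether the secretome changed these genes against medium. Within the infarct core (6 against 3 arrays), limma called 1 of the 7 genes lower, CLDN3, and none higher. Over all probes 5 were called, all lower, which is 0.0146%. CLDN3 was lower by 2.56 ± 0.43 in secretome infarct cores (limma adjusted p = 0.0468), a 5.88-fold difference. The call stood close to the threshold. It was lost without any 1 of pigs 11, 12, 13, 14, 15, 16 or 40, with limma adjusted p of 0.153 to 0.872, and held without pig 10 or pig 18. Within scan series 1 the difference was -2.80 (limma adjusted p = 0.263) and within scan series 2 it was -2.22 (0.0569). With scan series as a covariate limma gave an adjusted p of 0.00537, and with slide as the block 0.237.

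Another 3 genes had lower signals on all 6 secretome infarct cores than on all 3 medium ones, without passing limma. UPK1B read -3.94 ± 0.92 (limma adjusted p = 0.472), a 15.3-fold lower mean, and -3.32 ± 0.74 by probe 2. GATA5 read -1.36 ± 0.32 and CLDN15 -1.21 ± 0.28, both with a limma adjusted p of 0.472. With CLDN3 this makes 4 of 7 genes lower without overlap, where 1.45% of all probes were. Whether this comparison entered the choice of the genes is not recorded, and the 4 genes vary together over the arrays. The count is therefore a description and does not show an excess over all probes. Within scan series 1 and 2 the differences were -4.14 and -3.18 for UPK1B, -1.58 and -1.14 for GATA5, and -1.38 and -0.84 for CLDN15. The direction was the same in both series, though series 2 holds 1 medium pig. Medium infarct cores were on slide 1 (pigs 18 and 40) and slide 6 (pig 10). Secretome infarct cores were on slides 2 (pig 16), 3 (pigs 12 and 13), 4 (pigs 11 and 15) and 5 (pig 14). No slide held infarct cores of both arms, so arm and slide cannot be told apart in this comparison. Without pig 40 the differences were -3.53 for UPK1B, -2.23 for CLDN3, -1.22 for GATA5 and -0.93 for CLDN15.

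KRT8 (-0.67 ± 1.06), KRT18 (2.10 ± 1.38) and TBX18 (-0.24 ± 0.49) did not pass between the arms in the infarct core, with limma adjusted p of 0.974 to 0.981. The value of KRT18 rests on pig 40, where it lay at background, and was 0.81 without that pig.

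Marker scores of cardiomyocytes, fibroblasts, macrophages, endothelium, adipocytes and smooth muscle overlapped between the arms in the infarct core. Scores of the other mesothelium and epicardium genes did not, at -0.57 to 0.35 in secretome and 0.39 to 0.67 in medium infarct cores. Nor did those of epithelial junction genes, at -2.17 to -1.58 and -1.52 to -1.42. No gene of these lists passed limma between the arms there. Macrophage markers (4 of 6 measured) scored 2.44 to 3.92 in secretome and 3.65 to 4.34 in medium infarct cores, and 0 of the 4 passed limma. Cardiomyocyte markers scored 6.06 to 8.42 in secretome infarct cores and 7.06, 6.51 and 2.21 in those of medium pigs 10, 18 and 40, so that pig 40 alone lay below the secretome range. Their median difference was 1.89, and 0 of the 7 passed limma. Their part in the lower UPK1B, CLDN3, CLDN15 and GATA5 values was not tested.

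In the border zone, where injections were placed, limma called none of the 7 genes between the arms, and no probe of the array (0%). At an unadjusted p under 0.05 there were 0 of the 7 genes and 2471 probes. Differences were -1.43 ± 1.06 for KRT8, -0.62 ± 1.38 for KRT18, -0.59 ± 0.49 for TBX18, -1.75 ± 0.92 for UPK1B, -0.83 ± 0.43 for CLDN3, -0.45 ± 0.28 for CLDN15 and -0.40 ± 0.32 for GATA5. All 7 were below 0, and in each gene the arms overlapped. UPK1B and CLDN3 rest here on the border zone of pig 18: without it they were -0.48 and -0.21. Limma likewise called no member and no probe (0%) in normal regions, which hold 4 secretome and 2 medium arrays, with 0 genes and 595 probes at an unadjusted p under 0.05. TBX18 was higher there on all 4 secretome arrays and UPK1B lower, without overlap, where 4.75% of all probes were higher and 2.70% lower.

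Whether the difference between the arms was larger in the infarct core than in the border zone was tested as an interaction. Limma called none of the 7 genes and no probe (0%), with 4 genes and 1873 probes at an unadjusted p under 0.05. The interaction read -1.72 ± 0.41 for CLDN3 (limma adjusted p = 0.613), -2.19 ± 0.87 for UPK1B, -0.96 ± 0.30 for GATA5 and -0.77 ± 0.27 for CLDN15 (0.841 each). Without pig 18, whose border zone was high in CLDN3, the interaction of CLDN3 was -2.58 and passed (limma adjusted p = 0.00188).

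**Figure D4:**
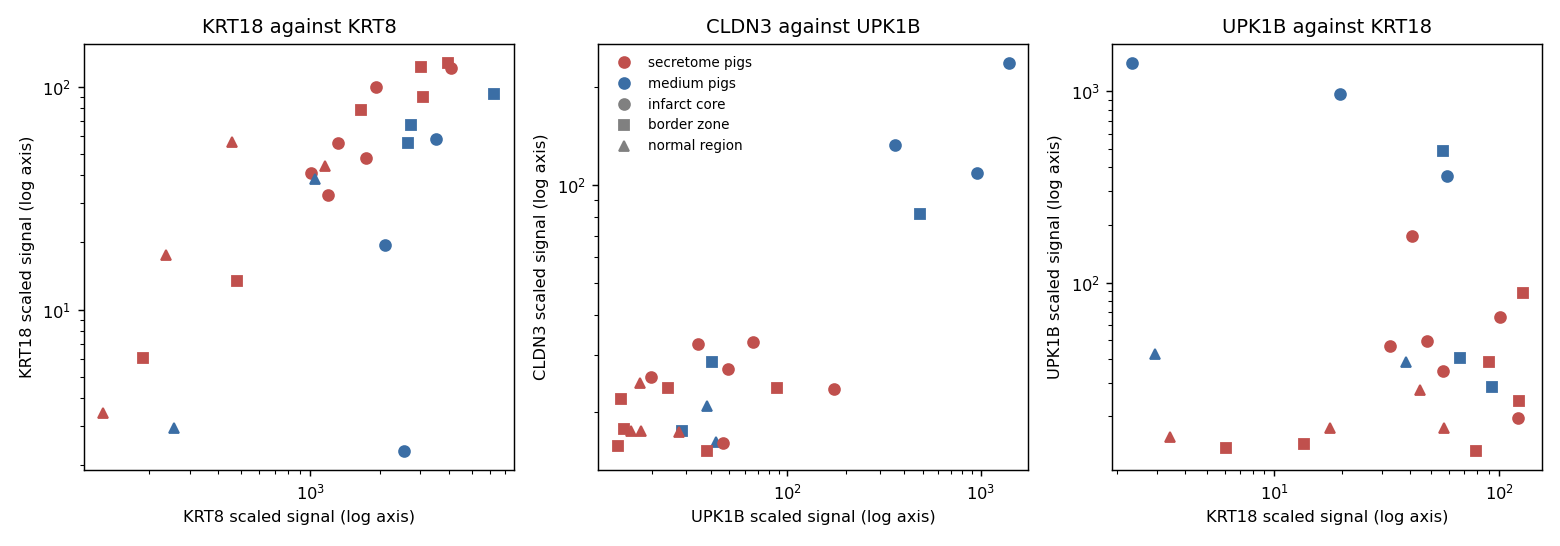
Scaled signal of KRT18 against KRT8, CLDN3 against UPK1B, and UPK1B against KRT18, 1 point per array, both axes logarithmic, colour by arm and shape by region. KRT8 and KRT18 have r = 0.69, with KRT18 lowest in 1 medium infarct core, CLDN3 and UPK1B are high on the same 4 medium arrays, and KRT18 and UPK1B do not rise together.

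The 7 genes did not vary as 1 set. Over 24 arrays, which share pigs and regions, UPK1B and CLDN3 had r = 0.88, CLDN3 and GATA5 0.82, CLDN3 and CLDN15 0.74, CLDN15 and GATA5 0.68, UPK1B and GATA5 0.67 and UPK1B and CLDN15 0.63. The keratin pair had 0.69. Between the sets, KRT18 read -0.13 with UPK1B, -0.18 with CLDN3, -0.18 with CLDN15 and -0.09 with GATA5. KRT8 lay between 0.26 and 0.43 with these 4 genes. TBX18 had 0.61 with UPK1B and 0.57 with KRT8, and 0.22 with CLDN15. After removing the mean of each scan series the keratin pair still had 0.69 and UPK1B with CLDN3 0.88. Patterns were thus of more than 1 kind. KRT8 was high in infarct cores and in border zones other than those of pigs 11 and 14, the latter without a test against the normal region. KRT18 overlapped in all regions, and TBX18 was high in every infarct core. UPK1B, CLDN3 and GATA5 were high in medium infarct cores. CLDN15 was highest in the infarct cores of medium pigs 40 and 18. In that of pig 10 (264) it lay below the border zones of pigs 18 and 40 (284 and 283) and the normal region of pig 18 (269).

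**Figure D5:**
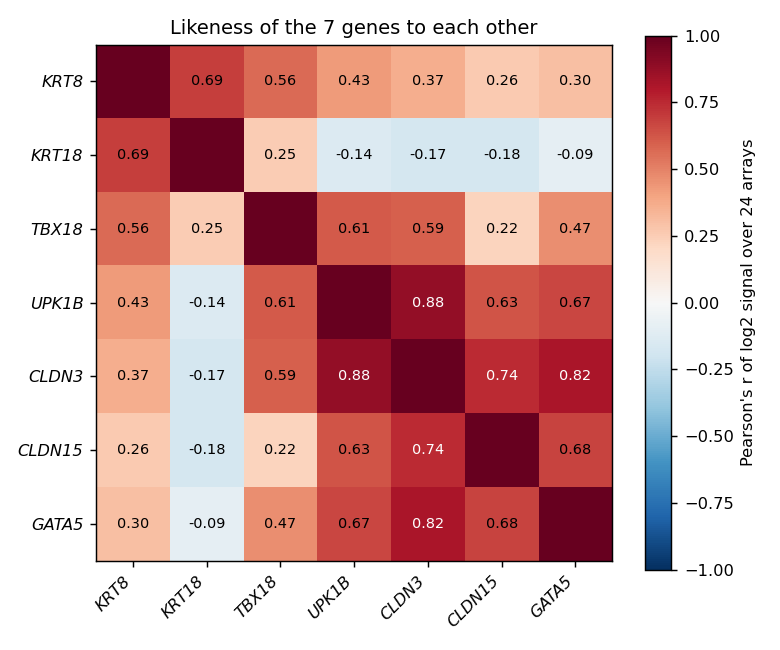
Pearson's r of log2 signal between each pair of the 7 genes over 24 arrays from 9 pigs. KRT8 and KRT18 have 0.69, the 4 genes from UPK1B to GATA5 have 0.63 to 0.88 with each other, and KRT18 has -0.18 to -0.09 with those 4.

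The genes most like each member were taken from all named genes over the 24 arrays. KRT8 was closest to MEST (r = 0.84), C13H3orf14 (0.81) and FRZB (0.80), an inhibitor of Wnt signalling. KRT18 was closest to FRZB (0.82), NPPB (0.79), the B-type natriuretic peptide, and NES (0.73), the filament protein nestin. TBX18 was closest to TCTN3 (0.98), SFXN3 (0.97) and DZIP1 (0.97). For UPK1B they were HP, haptoglobin (0.88), KCNV1 (0.87) and ALOX15 (0.87). RPTN (0.92), SERPINE3 (0.90) and ARHGEF16 (0.88) came first for CLDN3, and SERPINE3 (0.83), RPTN (0.80) and MARVELD3 (0.77), a tight junction protein, for GATA5. WFDC2, COL17A1, a hemidesmosomal collagen (0.88 each), and RIMKLB (0.85) came first for CLDN15. SERPINE3 and RPTN were thus shared by CLDN3 and GATA5, also with scan series means removed. FRZB was shared by the keratins, but left the first 3 of KRT8 once those means were removed, and RPTN then came first for UPK1B (0.89). Of the 21 pairings 15 stayed among the first 3.

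Of 25 other genes of mesothelium and epicardium, 7 could be read, and MSLN, UPK3B, CALB2, LRRN4, ALDH1A2 and BNC1 were not analysed here. In the infarct core against the normal region 3 were higher and 2 lower, where 25.4% and 27.6% of all probes were, with a median of 0.56 against -0.05 over all probes. ANXA8, an annexin, was higher by 3.31 ± 0.40 (limma adjusted p = 1.78e-06). TCF21, a transcription factor of epicardium-derived fibroblasts, was higher by 1.53 ± 0.23 (limma adjusted p = 1.47e-05), and HAS1, a hyaluronan synthase, by 1.85 ± 0.61 (limma adjusted p = 0.0145). The same 3 were higher than in the border zone, by 1.97 ± 0.35, 1.03 ± 0.20 and 1.5 ± 0.53. HAS1 was well above background in only 3 of 6 normal regions. Its infarct core exceeded the normal region in 5 of 6 pigs, with differences of -0.72 to 5.92. Lower were SLPI, a secreted protease inhibitor (-0.51 ± 0.17, limma adjusted p = 0.0162), and EZR, which links actin to the membrane (-0.53 ± 0.20, limma adjusted p = 0.0305); EZR was named after its value was seen. WT1, a defining transcription factor of the epicardium, read 0.56 ± 0.34 (limma adjusted p = 0.181). Within pigs, WT1 was higher in the infarct core in 3 of 6 against the normal region (median -0.11) and in 4 of 9 against the border zone (median -0.185). None of the 7 passed between the arms in the infarct core, where ANXA8 read -1.71 ± 0.73 and WT1 -1.08 ± 0.63 (limma adjusted p = 0.974 each). The label of the group thus rests on few of its defining markers on this array.

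Of the list of other keratins and epithelial junction genes 9 were measured, none of them a keratin. In the infarct core against the normal region 3 were higher and 2 lower, near the 25.4% and 27.6% over all probes. E-cadherin (CDH1) was higher by 1.10 ± 0.31 (limma adjusted p = 0.00581) and MARVELD3 by 0.87 ± 0.22 (limma adjusted p = 0.00257). Within pigs, CDH1 was higher in only 3 of 6 (-0.63 to 2.56) and MARVELD3 in 4 of 6 (-0.43 to 1.45). MARVELD3 was well above background in 2 of 6 normal regions. EPCAM, an epithelial adhesion molecule, was well above background in 7 of 9 infarct cores and 0 of 6 normal regions, at least 1.85-fold higher (limma adjusted p = 0.00237). Desmoplakin (DSP), which also anchors the intercalated disc of heart muscle, was lower by 1.62 on the log2 scale (-1.62 ± 0.29, limma adjusted p = 0.000106). The other lower gene was OCLN, occludin (-0.53 ± 0.19), named after its value was seen. Against the border zone CDH1 (0.87 ± 0.27), EPCAM (0.99 ± 0.32) and MARVELD3 (0.51 ± 0.19) were again higher and DSP lower (-1.24 ± 0.25). Over all probes 23.1% were higher and 23.6% lower there. EPCAM was well above background in only 2 of 9 border zones, and MARVELD3 in 6 of 9. In secretome against medium infarct cores CDH1 read -1.99 ± 0.57 (limma adjusted p = 0.88) and MARVELD3 -1.07 ± 0.41 (0.974), and none of the 9 passed.

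Relatives of the members were read in the same way. Of 14 other claudins 2 were higher and 5 lower in the infarct core than in the normal region, with a median of -0.39, where 25.4% of all probes were higher and 27.6% lower. No test set them against the members. CLDN7 was lower (-2.16 ± 0.34, limma adjusted p = 2.45e-05), as was CLDN5, the endothelial claudin (-0.82 ± 0.21, limma adjusted p = 0.00271). CLDN23 was at least 1.69-fold lower, being well above background in 0 of 9 infarct cores and 3 of 6 normal regions. CLDN4 was at least 1.17-fold higher, in 5 of 9 infarct cores and 0 of 6 normal regions. Of 4 other uroplakins 3 could be read and all 3 were lower, with UPK1A at -1.28 ± 0.33, UPK2 at -1.12 ± 0.33 and UPK3A at -0.79 ± 0.30 (limma adjusted p = 0.00268 to 0.0333). Against the border zone they were lower as well, at -0.99 ± 0.29, -0.80 ± 0.28 and -0.73 ± 0.26.

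Of 6 other T-box and GATA factors 3 were lower in the infarct core than in the normal region and none was higher, against the same 27.6% and 25.4%. GATA4 (-1.02 ± 0.20, limma adjusted p = 0.000193) and GATA6 (-1.10 ± 0.21, limma adjusted p = 0.000199), the GATA factors of heart muscle, were lower, and so was TBX5 (-0.40 ± 0.11, limma adjusted p = 0.00455), a T-box factor of the heart chambers. GATA2 read -0.23 ± 0.13 (limma adjusted p = 0.136). The fall of GATA4 and GATA6 stood beside the lower cardiomyocyte score of infarct cores, and its part was not tested. Of the factors of epithelial to mesenchymal transition, 2 of 5 could be read. SNAI2 was higher in the infarct core than in the normal region by 1.92 ± 0.24 (limma adjusted p = 2.26e-06) and than in the border zone by 1.26 ± 0.21 (6.93e-05). SNAI1 read 0.37 ± 0.24 (limma adjusted p = 0.197) and 0.50 ± 0.20 (0.0494).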

How the data were processed

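Total RNA (100 ng, integrity number above 6, per the labels' protocols) was labelled with Cy3 and hybridized to 1-colour Agilent porcine arrays. Intensity values came from the deposited scanner output. Per the file headers, Feature Extraction 10.7.3.1 (Agilent) ran with background correction off and with spatial and multiplicative detrending on. The deposited series table holds log2 values that the authors normalized. The submitters' processing notes name limma 3.14.4; the sources used here do not give its offset or scaling. Its columns had medians of 7.684 to 7.692 and a correlation of 0.915 to 0.939 with their own array, though 4 of the 24 correlated more highly with another array; it served as an alternative.

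Spots flagged as outliers (1 to 27 per array) were left out and spots of a probe averaged. From each log2 processed signal the 75th percentile of its array was subtracted. Kept were 34278 of 43603 probes, those with 3 or more of 24 arrays well above background. Names came from accessions (8988 probes), gene IDs (1299) and the files (3343, and 188 older names); 39 probes had several and 29326 none. The brightest kept probe stands for a gene.

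Group means per region and arm were fitted with limma 3.58.1 (R 4.3.3, statmod 1.5.0), pig as a random block (correlation 0.548), and adjusted over all kept probes. Region comparisons weight both arms equally. The pig numbers pair the samples, since a number is 1 animal. Deviations of the 21 same-pig pairs correlated at 0.583 on average, and of 94 pairs of other pigs in the same scan series at 0.439. For 118 pairs of other pigs in different scan series the average was -0.454. Likeness thus followed scan series as well as pig, and the main fit has no term for scan series. The code was tested on simulated data. P-values between arms within a region measure the spread between pigs. Those between regions, and of the interaction, rest mostly on how region differences vary from pig to pig. With scan series as a covariate the block correlation was 0.204. Where a region had no array well above background, the fold is a bound from the lowest signal well above background.

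The members and lists were chosen with earlier results of these data known. Named genes are all members, up to 4 genes of smallest p per list and comparison, all of lists with 5 or fewer measured genes, and the 3 genes most correlated with each member. Tables and figures were made with pandas 2.3.3, matplotlib 3.10.9 and numpy 2.4.6 (Python 3.11.15). Alternatives are in the closing section.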

Additional observations from a re-analysis of the deposited data

Results flagged for a closer look

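CLDN3 in the normal region of secretome pig 14 read 24.71, apart from the other 3 secretome normal regions, which lay between 17.4 and 17.59. The gap to the nearest of them was 0.969 of the whole range. Chance sets apart about 1 in 20 groups, and 1 of 21 groups of members was set apart here. The value lies among those of CLDN3 in secretome infarct cores.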

How the results depend on the processing

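Of 1057 member values recomputed under other settings, 991 kept their direction and side of the threshold, 19 lost a call, 7 gained one and 32 reversed. A further 8, all for border zone minus normal region without a test, moved by more than 1 SD. Members past the threshold by limma numbered 4 to 6 for infarct core minus normal region and 3 to 5 for infarct core minus border zone. For secretome minus medium in infarct cores it was 0 under quantile normalization, the percentile over probes detected on all arrays, a filter of at least 12 arrays, slide as the block and within either scan series, and 0 to 1 leaving out a pig. For the interaction it was 0 to 1 (1 without pig 18). Without a replicate block the member counts were 5, 4 and 1 for these first 3 comparisons. With pig as a fixed replicate block they were 5 and 4, and the arms could not be compared within a region.

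Over all probes, the 5 lower in secretome infarct cores became 0 with quantile normalization, a filter of at least 12 arrays or the slide block (1368 to 1753 unadjusted), 2 with normexp or the authors' deposited values, 3 with the percentile over probes detected on all arrays, 11 without a replicate block, 17 with scan series as a covariate, 12 within series 1 and 32 within series 2. Leaving out a pig, they became 0 without pigs 11, 12, 14, 15, 16 or 40, 1 without pig 13, 8 without pig 18 and 11 without pig 10.

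Reversed were infarct core minus normal region of KRT18 (-0.43) and CLDN15 (-0.018) within series 1, and infarct core minus border zone of KRT18 (0.64) and KRT8 (0.46) within series 2. KRT8 also read 0.075 there with quantile normalization, 0.028 with the percentile over probes detected on all arrays, 0.056 with normexp and 0.045 with the authors' deposited values. Between arms in border zones, KRT18 read 0.021 with the authors' deposited values and 0.64 within series 1, and CLDN3, CLDN15 and GATA5 read 0.26, 0.024 and 0.077 within series 2. In normal regions, KRT8 read 0.007 and 0.67, UPK1B 0.22, and CLDN3 0.26 and 0.27, the first value of each with the slide block and any other within series 2. CLDN3 also read 0.05 without a replicate block, and KRT18 -1.01 within series 1. The interaction read -0.88 for KRT8 within series 1 and -0.27 for TBX18 within series 2.

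Leaving out 1 pig, infarct core minus normal region of KRT18 ran from -0.24 to 2.23 and infarct core minus border zone of KRT8 from -0.46 to 0.12. Between arms in normal regions KRT8 ran from -1.59 to 0.8 and KRT18 from -0.46 to 3.7. The interaction ran from -0.067 to 1.09 for KRT8 and from -0.1 to 0.81 for TBX18. The cause of these changes was not tested. Limits are the 3 medium pigs, the 2 medium normal regions and KRT18 signals near background on 4 arrays.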

Other observations

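The infarct core of medium pig 40 separated the keratin partners. KRT18 read 2.32 there, not well above background, whereas KRT8 read 2535, inside the range of the other infarct cores. The same array had the highest UPK1B (1395), CLDN3 (237), CLDN15 (524) and GATA5 (85.0) of all 24 arrays, and the lowest cardiomyocyte score (2.21). The border zone of medium pig 18 was the only array outside medium infarct cores with UPK1B above 175 (485) and CLDN3 above 33.0 (81.8), and its KRT18 read 56.1.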
